A study of Mus musculus with 17 samples.

Results

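The genes described here are 10 genes that are commonly read to follow the epithelial to mesenchymal transition (EMT). They were chosen by symbol, with earlier results of these data known. They comprise *Cdh1* and *Epcam* on the epithelial side, *Cdh2*, *Vim* and *Fn1* on the mesenchymal side, and the transcription factors *Snai1*, *Snai2*, *Zeb1*, *Zeb2* and *Twist1*. They are 10 of the 54532 genes in the deposited table, and all 10 were among the 21871 genes that reached 1 TPM (transcripts per 1000000) in at least 2 of the 17 libraries. *Zeb2* reached 1 TPM in the day 3 libraries only, so it passed this filter through the groups in which it is high. RNA sequencing was carried out on R1/E cells, a mouse embryonic stem cell line, in 6 groups defined by genotype and by the day of retinoic acid (RA) treatment. Wild-type cells were sampled without RA (day 0, n = 2) and after 1 day (n = 3) and 3 days (n = 3) of RA. *Usb1* knockout cells, made from the same line with CRISPR/Cas9, were sampled at the same days (n = 3 each). *Usb1* encodes an enzyme that processes the end of the U6 small nuclear RNA, and the study asked whether it is needed for pluripotency. The knockout libraries come from 1 line, KO-1, so the knockout and the history of this clone cannot be told apart. No other allele or agent is named for any group, and the RA dose is not given in the sources used here.

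In an EMT, cells that adhere to each other through E-cadherin junctions lose these junctions, take up N-cadherin and the filament protein vimentin, and become motile. Transcription factors of the Snail, Zeb and Twist families drive this change, in part by binding E-box sequences in the promoters of epithelial genes such as *Cdh1*. Embryonic stem cells express E-cadherin, and EMT programs operate in the embryo at gastrulation and in the formation of extraembryonic endoderm, neural crest and mesenchyme.

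The libraries held between 15404379 and 17300186 reads on genes, as recovered from the TPM values, so depth differed little between groups. Genes at 1 read numbered 2150 to 2467 in most libraries, but 1352 in wild-type day 0 replicate 2 and 1224 in knockout day 3 replicate 1. Wild-type replicate 1 at day 0 stood furthest apart, with 239 genes at 1 read against 1224 to 2467 genes in the other 16 libraries. It is 1 of only 2 wild-type libraries at this day. Without it the remaining day 0 library was assumed to vary like the other groups, and the day 0 differences of the knockout were -1.43 for *Vim* (limma adjusted p = 1.07e-07), 1.499 for *Twist1* (adjusted p = 0.00566) and 0.54 for *Epcam* (adjusted p = 0.00602), against -1.42, 1.42 and 0.65 with it. At day 0 the wild-type libraries held 37.1 to 40.0 TPM of *Usb1* and the knockout libraries 15.2 to 17.9 TPM, and the gene was lower in the knockout at each day (log2 fold change -1.20, -1.34 and -0.93 at day 0, 1 and 3; limma, adjusted p of 3.23e-05, 1.97e-06 and 9.37e-05). All 8 embryonic stem cell markers examined were detected at day 0, where they summed to 9234 to 9249 TPM (wild-type) and 9189 to 10092 TPM (knockout). Their day 3 sums were 1224 to 1428 TPM (wild-type) and 1613 to 1964 TPM (knockout). P-values measure the spread between these samples, which the study describes as independent biological replicates.

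Throughout, changes are differences of log2(TPM + 1), which understate the change of genes at low levels. A change is described as a rise or a fall where the limma test passed an adjusted p of 0.05, and a gene is described as called where the change was also at least 2-fold on this scale. More of the EMT genes were called between day 0 and day 3 than between genotypes at any day. In wild-type cells 6 of the 10 genes were called from day 0 to day 3, all higher (*Cdh2*, *Vim*, *Snai1*, *Snai2*, *Zeb2* and *Twist1*), where 25.8% of all tested genes were called and 16.1% were called higher. In the knockout the corresponding count was 7, with *Fn1* added, against 21.9% of all genes called and 13.8% called higher. In bulk RNA, more cells of a type and more RNA per cell cannot be told apart in such a rise. The median log2 fold change over the 10 genes from day 0 to day 3 was 1.20 in wild-type cells, where that of all genes was 0.10, and 1.60 in the knockout, where that of all genes was 0.03. All 10 genes had day 3 levels that did not overlap with day 0 in each genotype, as did 60.0% of all genes in wild-type and 56.8% in knockout cells. Over the first day 2 were called in each genotype, *Snai1* and *Twist1* in wild-type (13.9% of all genes called), and *Snai2* and *Twist1* in the knockout (6.95%). Without wild-type day 0 replicate 1, *Cdh1* joined the 6 genes called from day 0 to day 3 in wild-type, and over the first day *Snai2* (1.02, adjusted p = 0.0147) took the place of *Snai1* (0.87, adjusted p = 0.0262). Between day 1 and day 3, 4 genes were called in wild-type (*Cdh2*, *Vim*, *Snai1* and *Zeb2*, with 15.2% of all genes called) and 6 in the knockout (*Cdh2*, *Vim*, *Fn1*, *Snai1*, *Snai2* and *Zeb2*, with 15.3%), where *Snai1* was under the 2-fold limit (0.97) without knockout day 1 replicate 2. The comparisons of day 3 with day 0 and with day 1 share the day 3 libraries, and those of day 1 and day 3 with day 0 share the day 0 libraries.

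**Figure D1:**
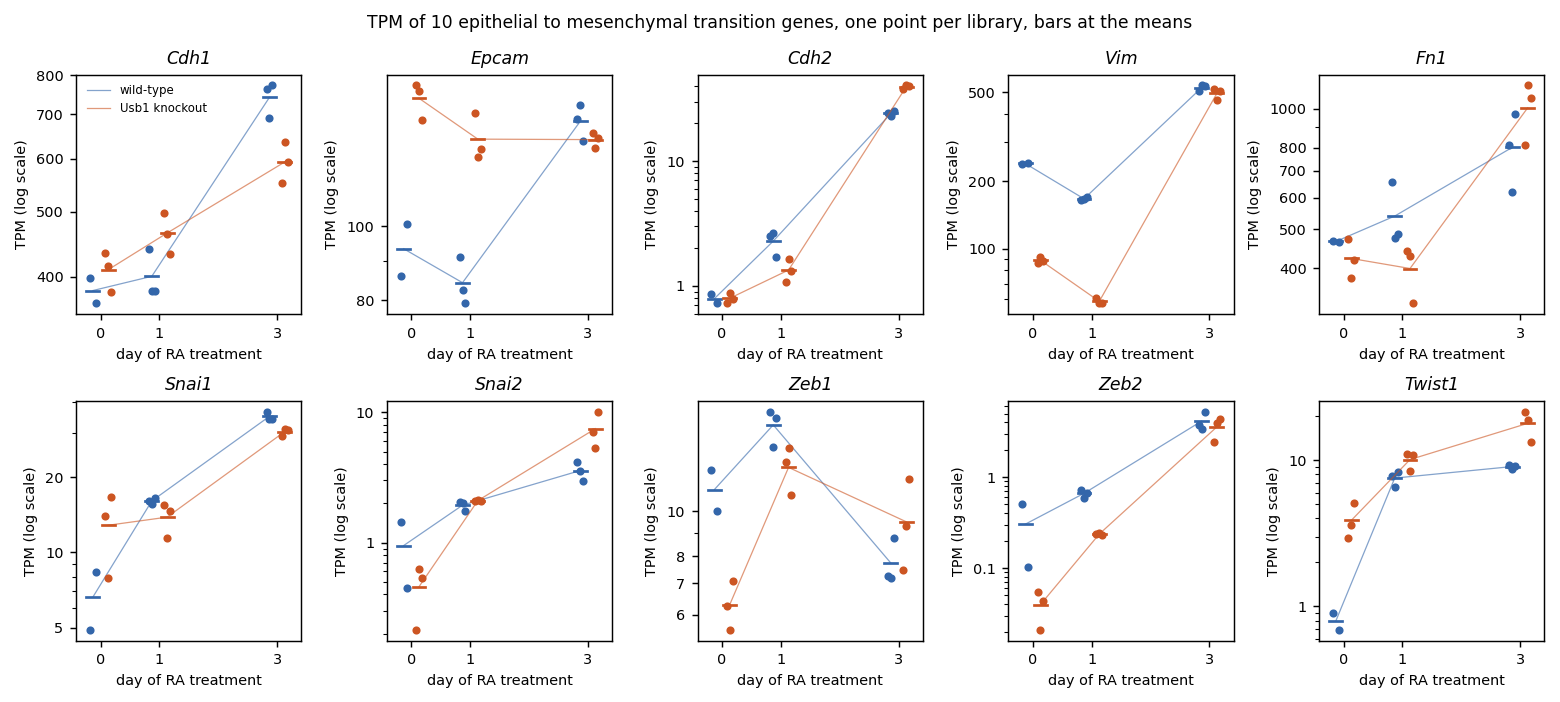
TPM of each of the 10 genes (log scale, a separate axis range per panel) against the day of RA treatment, with 1 point per library, bars at the group means and lines joining the means of wild-type (blue) and *Usb1* knockout (orange) cells. The knockout libraries sit below wild-type for *Vim* at day 0 and day 1 and close to it at day 3, while *Cdh1* is at its highest at day 3 in both genotypes.

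Between genotypes, no more than 2 of these genes were called at any day. At day 0, *Vim* was called lower and *Twist1* called higher, 2 of 10 genes where 3.05% of all genes were called. At day 1, *Vim* alone was called (2.22% of all genes), and at day 3 none of the 10 was called by limma (1.29% of all genes), although 4 had an adjusted p under 0.05 (7.52% of all genes) and 4 an unadjusted p under 0.05. The voom fit on recovered reads called 1 of the 10 at day 3, *Snai2*. Levels of the genotypes did not overlap for 5 of the 10 genes at day 0 (36.6% of all genes), 9 at day 1 (39.8%) and 5 at day 3 (22.0%). The median log2 fold change of all genes was -0.13 for the knockout against wild-type at day 1, and 0.17 for wild-type at day 1 against day 0. Relative to these medians, *Vim* differed by -1.37 between genotypes at day 1, and in wild-type cells *Twist1* changed by 2.07 and *Snai1* by 1.02 from day 0 to day 1.

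**Figure D2:**
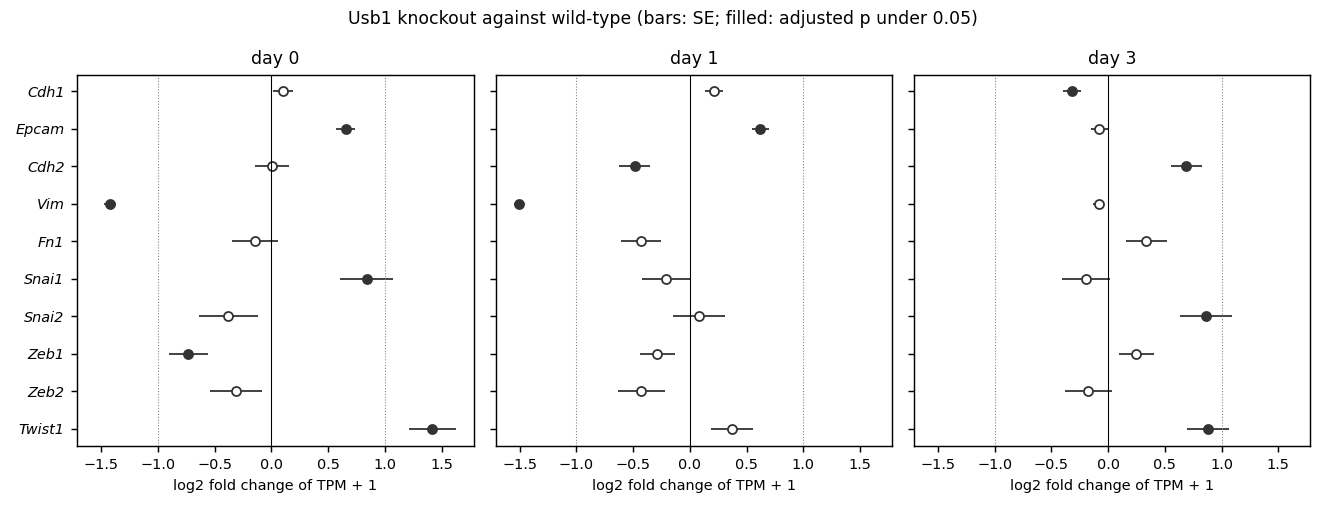
Log2 fold change of TPM + 1 in *Usb1* knockout against wild-type cells for each gene at day 0, 1 and 3, with bars for the standard error, filled circles for an adjusted p under 0.05 (limma) and dotted lines at a 2-fold change. *Vim* lies at -1.42 and -1.50 at day 0 and day 1 and at -0.08 at day 3, and *Twist1* lies above 0 at each day.

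Among the epithelial genes, *Cdh1* (ENSMUSG00000000303, chr8:106603351-106670246, plus strand, GRCm38), which encodes E-cadherin, was highly expressed throughout and rose under RA. The wild-type libraries gave *Cdh1* levels of 398 and 365 TPM before RA, 440.5, 380.5 and 381 TPM after 1 day and 762, 689.8 and 773 TPM after 3 days. The knockout libraries gave 434, 415 and 380.0 TPM before RA, 498, 464 and 433 TPM after 1 day and 552, 636 and 594 TPM after 3 days. All day 3 libraries lay above all day 0 and day 1 libraries, and at day 3 all knockout libraries lay below all wild-type libraries. The rise from day 0 to day 3 was 0.96 ± 0.09 (log2, SE) in wild-type (limma adjusted p = 3.7e-07) and 0.53 ± 0.08 in the knockout (adjusted p = 4.6e-05). The wild-type value lies just under the 2-fold limit and passed it without wild-type day 0 replicate 1 (1.02) and without day 3 replicate 2 (1.01). At day 3, *Cdh1* was lower in the knockout by -0.32 ± 0.08 (adjusted p = 0.0235), and its rise from day 1 to day 3 was smaller in the knockout by -0.54 ± 0.11 (adjusted p = 0.0104 for the difference between genotypes). The day 3 difference was -0.37 to -0.27 on leaving out a library, with a limma adjusted p of up to 0.0938. Under alternative processing its adjusted p was up to 0.116.

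*Epcam* (ENSMUSG00000045394, chr17:87635979-87651129, plus strand, GRCm38), the epithelial cell adhesion molecule, was the epithelial gene that separated the genotypes before RA. Its promoter is shown because it holds the E-box read by Snail and Zeb proteins at 2 positions. The window below is chr17:87635729-87636028 (plus strand, GRCm38.p6, RefSeq), from 250 bases before to 50 bases after the gene start, with the E-box CACCTG, or CAGGTG where the same site is read from the other strand, in capitals.
Epcam: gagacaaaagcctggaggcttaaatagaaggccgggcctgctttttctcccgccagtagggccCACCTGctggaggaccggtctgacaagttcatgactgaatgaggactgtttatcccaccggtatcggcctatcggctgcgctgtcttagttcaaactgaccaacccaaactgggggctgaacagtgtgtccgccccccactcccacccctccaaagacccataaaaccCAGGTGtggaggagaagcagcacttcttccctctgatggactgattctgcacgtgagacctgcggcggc
The first site begins 187 bases and the second 19 bases upstream of the start. Of 32851 mouse promoter windows of this length, 20.2% hold at least 1 such site on either strand and 2.88% hold 2 or more, so a match is a description of the sequence and not a mapped binding site. RefSeq windows were available for 5 of the 10 genes, *Epcam*, *Vim*, *Snai1*, *Zeb2* and *Twist1*. Those of *Vim*, *Zeb2* and *Twist1* held no such site, as is the case for most mouse promoter windows.

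Wild-type libraries held 86.1 and 101 TPM of *Epcam* at day 0, 91.2, 82.5 and 79.2 TPM at day 1, and 138, 145 and 129 TPM at day 3. Knockout libraries held 153, 151 and 138 TPM at day 0, 141, 123 and 126 TPM at day 1, and 132, 127 and 131 TPM at day 3. Without RA and at day 1 all knockout libraries lay above all wild-type libraries, and at day 3 the genotypes overlapped. *Epcam* was higher in the knockout by 0.65 ± 0.08 at day 0 (1.58-fold in mean TPM, limma adjusted p = 2.64e-04) and by 0.62 ± 0.07 at day 1 (adjusted p = 7.39e-05), with a difference of -0.08 ± 0.07 at day 3 (adjusted p = 0.672). Over the 3 days it rose by 0.55 ± 0.08 in wild-type (adjusted p = 5.08e-05) and changed by -0.18 ± 0.07 in the knockout (adjusted p = 0.06). The difference between these responses was -0.73 ± 0.11 (adjusted p = 0.00181). In wild-type cells *Cdh1* and *Epcam* thus both stood higher after 3 days of RA than before it.

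The mesenchymal genes rose, each with its own course. *Cdh2* (ENSMUSG00000024304, chr18:16588877-16809246, minus strand, GRCm38), which encodes N-cadherin, had the largest change of the 10 genes from day 0 to day 3 in each genotype on the log2(TPM + 1) scale. Before RA, the wild-type libraries held 0.856 and 0.728 TPM of *Cdh2* and the knockout libraries 0.725, 0.882 and 0.780 TPM, each value resting on 26 to 34 reads. One day of RA brought 2.51, 2.63 and 1.72 TPM in the wild-type and 1.08, 1.63 and 1.31 TPM in the knockout libraries. The day 3 libraries held 24.1, 23.0 and 25.0 TPM (wild-type) and 37.7, 40.4 and 40.1 TPM (knockout). The genotypes overlapped at day 0, the knockout was the lower at day 1 in all libraries and the higher at day 3 in all libraries. The knockout against wild-type difference was 0.00 ± 0.15 at day 0, -0.49 ± 0.14 at day 1 (limma adjusted p = 0.0253) and 0.69 ± 0.14 at day 3 (1.64-fold in mean TPM, adjusted p = 0.00637). The day 1 difference was as small as -0.31 under alternative processing, with a limma adjusted p of up to 0.267, and of up to 0.101 on leaving out a library. For day 3 these adjusted p values were at most 0.0508 and 0.0325. Over the 3 days *Cdh2* rose 30.4-fold in mean TPM in wild-type (log2 change 3.81 ± 0.15, adjusted p = 4.16e-11) and 49.5-fold in the knockout (4.49 ± 0.14, adjusted p = 1.98e-12). The rise from day 1 to day 3 was larger in the knockout by 1.17 ± 0.19 (adjusted p = 0.00202 for the difference).

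*Cdh2* rose without a loss of *Cdh1*. As a share of *Cdh1* TPM in the same library, *Cdh2* TPM was 0.199% to 0.215% in wild-type and 0.167% to 0.213% in knockout libraries at day 0. At day 3 this share was 3.16% to 3.33% in wild-type and 6.35% to 6.83% in knockout libraries, and no value of either genotype overlapped with the other. E-cadherin mRNA therefore exceeded N-cadherin mRNA in every library at every day.

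**Figure D3:**
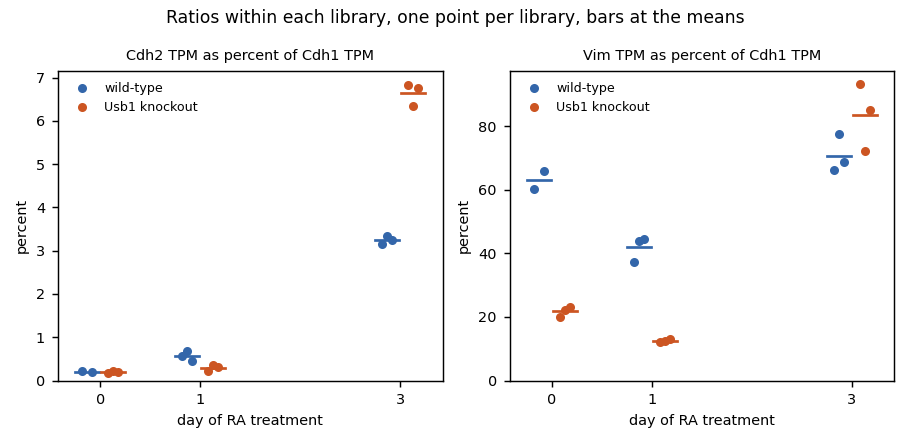
*Cdh2* TPM (left) and *Vim* TPM (right) as a percent of *Cdh1* TPM in the same library, against the day of RA treatment, with 1 point per library and bars at the group means. *Cdh2* reaches 3.16% to 3.33% in wild-type and 6.35% to 6.83% in knockout libraries at day 3, and *Vim* at day 1 lies at 37.4% to 44.5% in wild-type and 12.1% to 13.2% in knockout libraries.

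*Vim* (ENSMUSG00000026728, chr2:13573927-13582826, plus strand, GRCm38) encodes vimentin, the intermediate filament protein of mesenchymal cells, and was the only one of the 10 genes called between genotypes at both day 0 and day 1. Its promoter window, chr2:13574061-13574360 (plus strand, GRCm38.p6, RefSeq), is shown since the letters CACCTG and CAGGTG are not in it. It is set by the RefSeq start of *Vim*, 384 bases downstream of the start of the gene in the GENCODE annotation given above, whereas both annotations give the same start for *Epcam* and for *Snai1*.
Vim: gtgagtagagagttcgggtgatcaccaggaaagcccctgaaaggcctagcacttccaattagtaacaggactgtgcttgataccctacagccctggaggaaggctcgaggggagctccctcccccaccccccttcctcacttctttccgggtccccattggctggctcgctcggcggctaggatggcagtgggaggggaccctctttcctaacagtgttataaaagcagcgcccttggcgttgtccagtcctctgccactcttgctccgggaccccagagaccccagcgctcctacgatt
The wild-type libraries gave *Vim* levels of 239.7 and 241 TPM before RA, 165, 167 and 169 TPM after 1 day and 504, 535 and 530.3 TPM after 3 days. The knockout libraries gave 86.4, 91.9 and 88.3 TPM before RA, 60.5, 57.2 and 57.1 TPM after 1 day and 516, 460.0 and 506 TPM after 3 days. Every knockout library lay far below every wild-type library at day 0 and day 1, with little spread in either group, and the genotypes overlapped at day 3. Mean *Vim* TPM was 2.70-fold lower in the knockout at day 0 (log2 fold change -1.42 ± 0.05, limma adjusted p = 9.13e-10) and 2.86-fold lower at day 1 (-1.50 ± 0.05, adjusted p = 1.32e-10), with a difference of -0.08 ± 0.05 at day 3 (adjusted p = 0.388).

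The course of *Vim* was not monotonic. It fell from day 0 to day 1 by 0.52 on the log2 scale in wild-type (SE 0.05, adjusted p = 3.65e-06) and by 0.60 in the knockout (SE 0.05, adjusted p = 3.78e-07), and the difference between these falls was -0.08 ± 0.07 (adjusted p = 0.604). It then rose from day 1 to day 3 by 1.64 ± 0.05 in wild-type (3.13-fold in mean TPM, adjusted p = 2.97e-12) and by 3.06 ± 0.05 in the knockout (8.47-fold, adjusted p = 8.94e-15). The late rise was larger in the knockout by 1.42 ± 0.07 (adjusted p = 1.03e-07), and over day 0 to day 3 the response was larger by 1.34 ± 0.07 (adjusted p = 1.14e-07). The rise from day 0 to day 3 in wild-type (1.12 ± 0.05, adjusted p = 2.96e-10) was 1.02 relative to the median of all genes and 0.91, under the 2-fold limit, with the medians of all libraries set equal.

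*Fn1* (ENSMUSG00000026193, chr1:71585520-71653200, minus strand, GRCm38), which encodes the matrix protein fibronectin, was the most abundant of the 10 genes in wild-type cells at day 0 and already exceeded *Cdh1* there. Wild-type libraries held 467 and 466 TPM at day 0, 659, 475 and 487 TPM at day 1, and 813, 621 and 971 TPM at day 3. Knockout libraries held 473, 378 and 418 TPM at day 0, 443, 429 and 327 TPM at day 1, and 811, 1144 and 1063 TPM at day 3. The spread within the day 3 groups was wide, and the genotypes overlapped at day 0 and day 3. *Fn1* rose from day 0 to day 3 by 0.76 ± 0.20 in wild-type (limma adjusted p = 0.00529) and by 1.24 ± 0.18 in the knockout (adjusted p = 3.38e-05), where the rise was 0.92 with the medians of all libraries set equal. No genotype difference passed the test at any day (adjusted p of 0.683, 0.122 and 0.347), nor did the difference between the responses to day 3 (0.48 ± 0.27, adjusted p = 0.311). *Fn1* shares 292 exon bases with *Apol7d*, annotated on the opposite strand and at no more than 2.71 TPM, and whether counting used strand is not given in the sources used here.

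**Figure D4:**
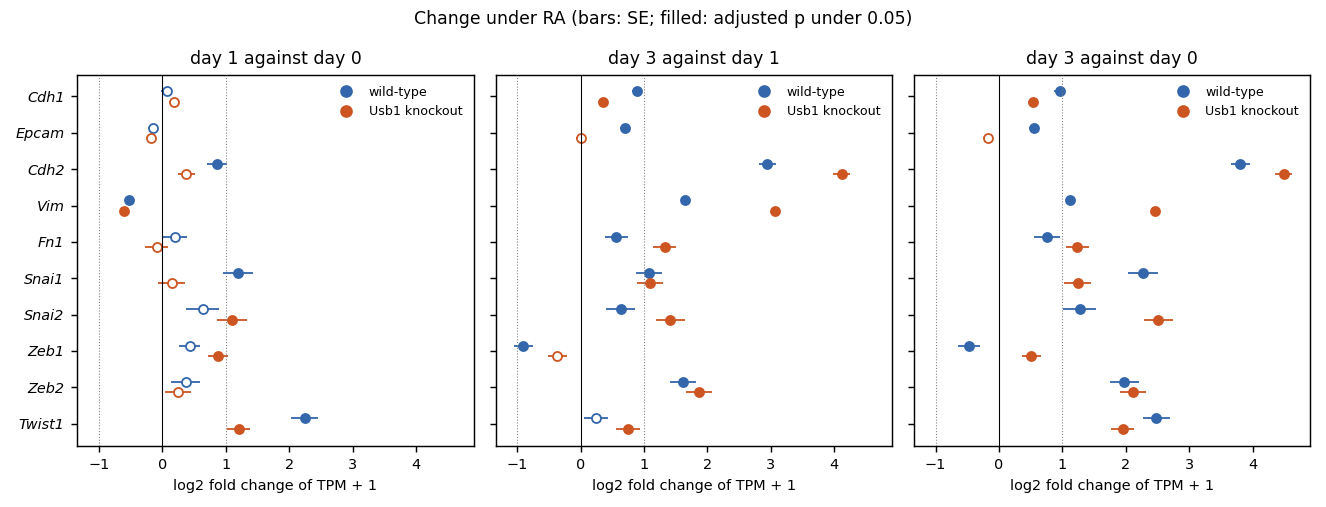
Log2 fold change of TPM + 1 under RA for each gene from day 0 to day 1, day 1 to day 3 and day 0 to day 3 in wild-type (blue) and *Usb1* knockout (orange) cells, with bars for the standard error, filled circles for an adjusted p under 0.05 (limma) and dotted lines at a 2-fold change. *Cdh2* has the largest change to day 3 (3.81 and 4.49), *Vim* falls at day 1 in both genotypes, and *Zeb1* changes by -0.47 in wild-type and 0.51 in the knockout over the 3 days.

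The transcription factors were present at lower levels than *Cdh1*, *Epcam*, *Vim* and *Fn1* in every group, and *Snai1* was the most abundant of the 5 at day 3. The mean of *Cdh2* lay below that of *Snai1* in every group but the knockout at day 3. *Snai1* (ENSMUSG00000042821, chr2:167538195-167542814, plus strand, GRCm38) encodes the zinc finger repressor Snail, which binds E-boxes of *Cdh1*. Its own promoter is shown since it holds the same E-box, in capitals, beginning 126 bases upstream of the start (chr2:167537945-167538244, plus strand, GRCm38.p6, RefSeq).
Snai1: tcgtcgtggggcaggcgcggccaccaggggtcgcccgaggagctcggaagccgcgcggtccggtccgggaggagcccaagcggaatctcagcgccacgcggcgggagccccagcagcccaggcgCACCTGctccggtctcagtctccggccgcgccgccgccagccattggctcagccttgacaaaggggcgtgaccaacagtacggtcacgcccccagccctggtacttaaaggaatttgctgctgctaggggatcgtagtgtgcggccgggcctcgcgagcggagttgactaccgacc
The wild-type libraries gave *Snai1* levels of 4.91 and 8.36 TPM before RA, 16.0, 15.6 and 16.6 TPM after 1 day and 36.5, 34.3 and 34.2 TPM after 3 days. The knockout libraries gave 14.03, 7.88 and 16.6 TPM before RA, 15.4, 11.4 and 14.7 TPM after 1 day and 29.3, 31.0 and 31.0 TPM after 3 days. At day 0 knockout replicate 2 lay within the wild-type range and the other knockout libraries above it, and at day 3 all knockout libraries lay below all wild-type libraries. *Snai1* rose from day 0 to day 1 in wild-type by 1.20 ± 0.24 (limma adjusted p = 0.00107) and changed by 0.15 ± 0.21 in the knockout (adjusted p = 0.672). Without wild-type day 0 replicate 1 the wild-type rise was 0.87, under the 2-fold limit. The difference between these responses was -1.05 ± 0.32 and did not pass the adjustment (adjusted p = 0.101). It was called without wild-type day 0 replicate 2 (-1.38, adjusted p = 0.0148) and without knockout day 0 replicate 2 (-1.34, adjusted p = 0.0137). Over 3 days *Snai1* rose 5.28-fold in mean TPM in wild-type (2.28 ± 0.24, adjusted p = 1.14e-06) and 2.37-fold in the knockout (1.24 ± 0.21, adjusted p = 1.54e-04), the latter falling under the 2-fold limit without knockout day 0 replicate 2 (0.95) and with equal medians (0.94). The difference between the responses to day 3 was -1.03 ± 0.32 (adjusted p = 0.0699). As a smaller rise in the knockout it was called after quantile normalization (-1.12), with voom (-1.20) and without replicate 2 of the wild-type (-1.37) or knockout (-1.33) day 0 libraries, and it was -0.70 (adjusted p = 0.276) without wild-type day 0 replicate 1. At day 0 *Snai1* was higher in the knockout by 0.84 ± 0.24 (adjusted p = 0.0345), a difference that varied with single libraries. It was 0.51 (adjusted p = 0.311) without wild-type day 0 replicate 1, and it was called without wild-type day 0 replicate 2 (1.17, adjusted p = 0.00784), without knockout day 0 replicate 2 (1.13, adjusted p = 0.0028) and with voom on recovered reads (1.01, adjusted p = 0.0428).

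*Snai2* (ENSMUSG00000022676, chr16:14705852-14709385, plus strand, GRCm38), which encodes the related repressor Slug, was near the lower limit of these libraries at day 0. Before RA, the wild-type libraries held 1.45 and 0.447 TPM and the knockout libraries 0.214, 0.621 and 0.537 TPM, on 2 to 14 reads each. One day of RA brought 2.07, 2.00 and 1.74 TPM in the wild-type and 2.099, 2.11 and 2.09 TPM in the knockout libraries. The day 3 libraries held 4.17, 3.56 and 2.98 TPM (wild-type) and 7.09, 5.29 and 10.1 TPM (knockout), so that every knockout library lay above every wild-type library. *Snai2* rose from day 0 to day 3 by 1.27 ± 0.26 in wild-type (limma adjusted p = 7.51e-04) and by 2.52 ± 0.23 in the knockout (adjusted p = 3.08e-07). At day 3 it was higher in the knockout by 0.86 ± 0.23 (adjusted p = 0.0352), a difference of 1.06 and called without knockout day 3 replicate 2. Leaving out single libraries also took this day 3 difference down to 0.65, with a limma adjusted p of up to 0.151. Under alternative processing the adjusted p was up to 0.186, so the difference did not pass the test in every setting. The wild-type rise was 0.89 without wild-type day 0 replicate 2 and 0.95 after quantile normalization, both under the 2-fold limit. In the knockout it was called from day 0 to day 1 (1.10 ± 0.23, adjusted p = 0.00243), and this change was 0.97 without knockout day 0 replicate 1. The larger response of the knockout to day 3 (1.24 ± 0.35) had an adjusted p of 0.0495, and this call was lost in 16 of 19 other settings, with an adjusted p of 0.199 without wild-type day 0 replicate 1.

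*Zeb1* (ENSMUSG00000024238, chr18:5591860-5775467, plus strand, GRCm38), a zinc finger homeobox repressor of epithelial genes, was the only one of the 10 genes to be lower at day 3 than at day 0 in wild-type cells. The wild-type libraries gave 12.3 and 10.01 TPM before RA, 16.4, 13.8 and 15.9 TPM after 1 day and 7.26, 7.18 and 8.77 TPM after 3 days. The knockout libraries gave 6.25, 5.57 and 7.08 TPM before RA, 12.8, 13.7 and 10.8 TPM after 1 day and 7.47, 9.31 and 11.7 TPM after 3 days. Its mean was highest at day 1 in both genotypes, and at day 0 and day 1 all knockout libraries lay below all wild-type libraries. From day 0 to day 1 *Zeb1* rose in the knockout by 0.88 ± 0.15 (limma adjusted p = 5.22e-04), with 0.43 ± 0.17 in wild-type (adjusted p = 0.0596). From day 1 to day 3 it fell in wild-type by 0.90 (SE 0.15, limma adjusted p = 1.88e-04), with -0.37 ± 0.15 in the knockout (adjusted p = 0.0624). *Zeb1* fell in wild-type by 0.47 on the log2 scale from day 0 to day 3 (SE 0.17, limma adjusted p = 0.0301) and rose in the knockout by 0.51 ± 0.15 (adjusted p = 0.0111). The difference between these responses was 0.98 ± 0.23 (adjusted p = 0.0217), and at day 0 *Zeb1* was lower in the knockout by -0.73 ± 0.17 (adjusted p = 0.0137). Without wild-type day 0 replicate 1 the wild-type change was -0.34 (adjusted p = 0.211) and the day 0 difference -0.60 (adjusted p = 0.124), so neither passed the test, and the difference between the responses was 0.85 (adjusted p = 0.0928). That difference was over the 2-fold limit (1.06 to 1.13) without wild-type day 0 replicate 2, knockout day 0 replicate 3, wild-type day 3 replicate 3 or knockout day 3 replicate 1. *Zeb1* shares 198 exon bases with *Gm10125*, annotated on the opposite strand and at no more than 0.824 TPM.

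*Zeb2* (ENSMUSG00000026872, chr2:44983632-45117395, minus strand, GRCm38), its paralog, was nearly silent before RA. The wild-type day 0 libraries held 0.504 and 0.102 TPM (48 and 9 reads) and the knockout libraries 0.0543, 0.0210 and 0.0435 TPM (5, 2 and 4 reads). One day of RA brought 0.727, 0.586 and 0.674 TPM in the wild-type and 0.234, 0.244 and 0.231 TPM in the knockout libraries. The day 3 libraries held 3.77, 3.38 and 5.23 TPM (wild-type) and 2.42, 3.98 and 4.32 TPM (knockout). All knockout libraries lay below all wild-type libraries at day 0 and day 1, and the genotypes overlapped at day 3, but no difference between them passed the test on this scale (adjusted p of 0.414, 0.183 and 0.748, limma). Mean TPM was 7.65-fold lower in the knockout at day 0 and 2.80-fold lower at day 1, where the limma adjusted p spanned 0.0158 to 0.524 under alternative processing. The knockout change from day 0 to day 1 (0.25 ± 0.20, limma adjusted p = 0.422) was called with a pseudocount of 0.1 (1.28) and with voom (2.54). Over the 3 days *Zeb2* rose by 1.98 ± 0.23 in wild-type (adjusted p = 3.75e-06) and by 2.11 ± 0.20 in the knockout (adjusted p = 5.32e-07). The 2 Zeb genes thus took different courses in wild-type cells. *Zeb2* shares 653 exon bases with *Zeb2os* on the opposite strand, which was at no more than 0.227 TPM.

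*Twist1* (ENSMUSG00000035799, chr12:33957671-33959829, plus strand, GRCm38), a basic helix-loop-helix factor of mesoderm and neural crest, came close to its wild-type day 3 level within 1 day of RA. The wild-type libraries gave it levels of 0.900 and 0.693 TPM before RA (7 and 5 reads), 7.83, 6.52 and 8.25 TPM after 1 day and 9.29, 8.70 and 9.12 TPM after 3 days. The knockout libraries gave 2.93, 3.60 and 5.07 TPM before RA, 10.9, 8.47 and 10.8 TPM after 1 day and 21.4, 18.9 and 13.2 TPM after 3 days. Every knockout library lay above every wild-type library at each of the 3 days. From day 1 to day 3 the wild-type change was 0.24 ± 0.19 (limma adjusted p = 0.337). *Twist1* was higher in the knockout by 1.42 ± 0.21 at day 0 (limma adjusted p = 7.89e-04), by 0.37 ± 0.19 at day 1 (adjusted p = 0.199) and by 0.88 ± 0.19 at day 3 (adjusted p = 0.00932). The day 0 call was lost when the 5 libraries of this comparison were fitted alone (adjusted p = 0.0992), a fit that called 73 genes where the fit of all libraries called 668. At day 3 the difference was 1.07, over the 2-fold limit, without knockout replicate 3. During the first day *Twist1* rose by 2.24 ± 0.21 in wild-type (adjusted p = 1.26e-06) and by 1.20 ± 0.19 in the knockout (adjusted p = 2.03e-04). The difference between these responses was -1.04 ± 0.28 and did not pass the adjustment (adjusted p = 0.0698). With a pseudocount of 0.1 it was -1.71 and called (limma adjusted p = 0.0176).

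Over the 3 transcription factor families, 4 of the 5 factors were called higher from day 0 to day 3 in each genotype and *Zeb1* was not, where 16.1% (wild-type) and 13.8% (knockout) of all tested genes were called higher. The 4 include *Zeb2*, which passed the filter through its day 3 libraries. The order of levels within a group placed *Fn1*, *Cdh1*, *Vim* and *Epcam* above all 5 factors and above *Cdh2* in every group. In wild-type cells at day 3 the order was *Fn1*, *Cdh1*, *Vim*, *Epcam*, *Snai1*, *Cdh2*, *Twist1*, *Zeb1*, *Zeb2* and *Snai2*, with *Fn1* and *Cdh1*, *Twist1* and *Zeb1*, and *Zeb2* and *Snai2* overlapping between libraries. In the knockout at day 3 *Cdh2* stood above *Snai1*, and of the neighbours in the order *Zeb1* and *Snai2* alone overlapped. At day 0 in wild-type *Snai2*, *Twist1* and *Cdh2* overlapped, so that their order is not resolved there.

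The difference between genotypes in the response to RA was tested for each gene. From day 0 to day 1 none of the 10 was called (0.860% of all genes called), with 3 at an unadjusted p under 0.05 and none called by voom on the recovered reads. From day 0 to day 3, *Vim* and *Snai2* were called (2.42% of all genes), and from day 1 to day 3 *Cdh2* and *Vim* (2.25% of all genes). These 4 calls were toward a larger rise in the knockout. Of all genes, 1.17% were called in that direction to day 3 from day 0 (256 of 529 calls) and 1.72% from day 1 (376 of 493 calls, and 239 of 432 after quantile normalization). *Snai1* was called in the opposite direction from day 0 to day 3 in the 4 settings given above.

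Other genes of the same programs are given by lists that overlap with no member and were also chosen with earlier results of these data known. Among 16 genes of adherens and tight junctions, 6 were called higher from day 0 to day 3 in wild-type and 7 in the knockout, and none lower, where 16.1% and 13.8% of all genes were called higher and 9.68% and 8.04% lower. Claudin 6 (*Cldn6*) went from 18.1 ± 4.21 TPM (SD, n = 2) to 374 ± 35.2 TPM (n = 3) in wild-type, and desmoplakin (*Dsp*) from 14.6 ± 2.27 to 208 ± 33.1 TPM. The median log2 fold change of this list was 0.65 in wild-type and 0.81 in the knockout. At an adjusted p under 0.05, 12 of the 16 junction genes rose and 1 fell in wild-type, and 13 rose and 1 fell in the knockout, where 29.6% and 29.7% of all genes rose.

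Among 12 epithelial regulators and keratins, 8 were called higher and 2 lower in wild-type, and 5 higher and 2 lower in the knockout, against the same shares of all genes (16.1% higher and 9.68% lower in wild-type, 13.8% and 8.04% in the knockout). The simple epithelial keratin gene *Krt8* went from 38.4 ± 2.76 TPM at day 0 to 2810.1 ± 69.0 TPM at day 3 in wild-type, and *Krt18* from 15.5 ± 0.712 to 2139 ± 218 TPM in the knockout. The genes that fell in wild-type were *Klf4*, a pluripotency and epithelial factor (301.7 ± 31.7 to 58.0 ± 0.819 TPM), and *Grhl3*, a grainyhead-like factor (22.4 ± 1.72 to 8.03 ± 1.55 TPM). The list median was 1.296 in wild-type and 0.80 in the knockout.

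Of 20 genes of the mesenchymal matrix and cytoskeleton, 18 could be tested. Of these, 13 were called higher and 1 lower in wild-type and 14 and 1 in the knockout, where 16.1% and 13.8% of all genes were called higher. *Acta2* and *Col3a1* reached 1 TPM at day 3 only, so they passed the filter through the groups in which they are high. *Tnc* and *Cdh11*, called higher as well, were listed at 0 in both wild-type day 0 libraries. Those libraries listed 17090 and 22314 genes above 0, with 239 and 1352 genes at 1 read, so a 0 there need not mean absence. In all knockout day 0 libraries *Acta2* and *Tnc* were at 0 too. *Acta2*, smooth muscle actin, was listed at 0 in both wild-type day 0 libraries and reached 109 ± 6.21 TPM at day 3 (142 ± 13.6 TPM in the knockout). The type I collagen gene *Col1a1* went from 1.42 ± 0.474 to 24.1 ± 3.76 TPM in wild-type. *Tgfbi*, a matrix protein gene induced by TGF-beta, went from 47.1 ± 2.81 through 165 ± 14.8 to 23.0 ± 2.08 TPM in wild-type and from 16.5 ± 2.62 through 71.9 ± 4.49 to 74.5 ± 2.90 TPM in the knockout. At day 3 *Tgfbi* (1.66 ± 0.10, limma adjusted p = 2.75e-07) and the type III collagen gene *Col3a1* (1.10 ± 0.14, adjusted p = 2.14e-04) were called higher in the knockout, the only calls of this list between genotypes at that day. The list median from day 0 to day 3 was 1.66 in wild-type and 2.12 in the knockout.

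Among 12 other transcription factors linked to EMT, 10 were tested, and 3 were called higher and 2 lower in wild-type and 5 and 2 in the knockout. Of all genes, 16.1% were called higher and 9.68% lower in wild-type, and 13.8% and 8.04% in the knockout. *Sox4* went from 7.09 ± 0.764 to 169 ± 23.3 TPM in wild-type, and *Sox9*, listed at 0 in both wild-type day 0 libraries, reached 8.43 ± 1.51 TPM in wild-type and 18.9 ± 2.14 TPM in the knockout. The filter was passed by *Sox9* through libraries treated with RA. Its 0 in the wild-type day 0 libraries need not mean absence, as for the mesenchymal genes above. *Sox9* (1.09 ± 0.15, limma adjusted p = 4.81e-04) and the forkhead factor *Foxc2* (1.60 ± 0.33, adjusted p = 0.00761) were called higher in the knockout at day 3. *Snai3* and *Klf8* fell in wild-type, to 0.352 ± 0.406 and 14.8 ± 3.58 TPM. Of 12 genes of TGF-beta signalling, 4 were called higher in wild-type and 7 in the knockout and none lower (16.1% and 13.8% of all genes called higher), among them the ligand gene *Tgfb2* (1.39 ± 1.15 to 89.2 ± 5.44 TPM in wild-type) and the receptor gene *Tgfbr3* (3.69 ± 0.342 to 39.8 ± 5.78 TPM).

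**Figure D5:**
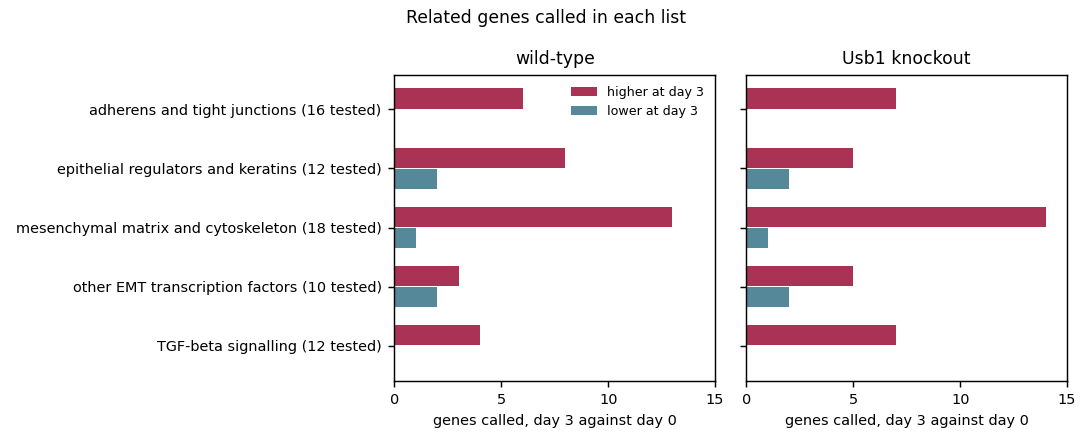
Number of genes called higher and lower from day 0 to day 3 of RA in each of 5 lists of related genes (number tested in parentheses), in wild-type and *Usb1* knockout cells. In the mesenchymal list 13 genes in wild-type and 14 in the knockout were called higher, and in the junction list 6 and 7.

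Markers of other cell types were summed in the same libraries. The summed level of 10 primitive and visceral endoderm markers went from 23.9 to 36.6 TPM at day 0 to 771 to 819 TPM at day 3 in wild-type, and from 12.9 to 17.6 TPM to 363 to 415 TPM in the knockout. At day 1 it was 24.7 to 27.5 TPM in the knockout against 93.7 to 95.9 TPM in wild-type, so at each day every knockout library lay below every wild-type library. Among the EMT genes, the knockout libraries were below all wild-type libraries at day 0 and day 1 for *Vim*, *Zeb1* and *Zeb2*. For *Epcam* and *Twist1* they were above all wild-type libraries at these days. At day 3 the genotypes overlapped for *Vim*, *Zeb1* and *Zeb2*. The sum of 8 mesoderm and primitive streak markers was 36.5 to 54.4 TPM in wild-type and 69.3 to 83.0 TPM in the knockout at day 3, against 8.51 to 10.8 and 9.56 to 12.5 TPM at day 0. Of the 6 that could be tested, 2 were called higher and 1 lower from day 0 to day 3 in wild-type (*Hand1*, *Tbx20* and *T*). In the knockout *Hand1* alone was called, higher, and the list medians were 0.42 (wild-type) and 0.17 (knockout). Of all genes, 16.1% (wild-type) and 13.8% (knockout) were called higher, and 9.68% and 8.04% lower. The sum of 8 neural progenitor markers was 102 to 112 TPM (wild-type) and 136 to 157 TPM (knockout) at day 3. At day 0 it was already 110 to 123 and 134 to 145 TPM, with the knockout above wild-type. Of the 4 that could be tested, 1 was called higher and 2 lower from day 0 to day 3 in each genotype (*Tubb3*, *Nes* and *Sox1*). The medians of this list were -0.81 (wild-type) and -0.77 (knockout). The sum of 10 fibroblast markers was 14.6 to 19.1 TPM over both genotypes at day 0, where *Dcn*, *Lum*, *Postn* and *Fap* were listed at 0 in all libraries, and 65.3 to 80.3 TPM in wild-type and 104 to 115 TPM in the knockout at day 3. The collagen genes *Col1a1*, *Col1a2* and *Col3a1* are in this list and in the mesenchymal list. The part of these cell types in the changes of the EMT genes was not tested.

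The genes whose pattern over the 6 groups was most like a member were sought among 12444 genes with a mean of at least 5 TPM, by the root mean square difference of centred group means of log2(TPM + 1). For *Cdh1* these were *Cox4i1* (difference 0.0420), *Slc37a4* (0.0572) and *Lpcat4* (0.0613). For *Cdh2* they were *Plac1* (0.104), *Zfp608* (0.168) and *Dact1* (0.173). For *Vim* they were *Dpysl3* (0.244), *Epha4* (0.359) and *Optn* (0.373), all larger differences than those for *Cdh1*. *Dpysl3* averaged 18.7, 13.04 and 32.9 TPM over the 3 days sampled in wild-type cells, and 6.74, 5.66 and 46.0 TPM in the knockout.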

How the data were processed

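R1/E mouse embryonic stem cells, wild-type and *Usb1* knockout (KO-1), were profiled by RNA-seq at day 0, 1 and 3 of RA in 17 libraries, grouped by their labels. The authors made NEBNext Ultra libraries, sequenced them on a NovaSeq platform, and deposited TPM, calculated from gene length and the reads on each gene. HISAT2 (2.1.0), StringTie (1.3.6) and GRCm38.p6 are named in the submitters' processing notes. Each deposited column sums to 1000000, so a TPM value is relative to the other genes of its library.

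Gene identifiers were matched to GENCODE M21, which held 54495 of 54532, and reads were recovered from TPM, exon length and the step of each library, giving whole numbers (within 0.01) for 95.9% to 96.7% of values. The libraries held 15404379 to 17300186 reads. Reads without molecular identifiers carry counting error only in part, so the read numbers describe precision and give no interval.

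Genes reaching 1 TPM in 2 or more libraries were tested with limma (3.58.1, R 4.3.3) on log2(TPM + 1), with the means of the 6 groups, a variance trend and Benjamini-Hochberg adjustment within each of 12 comparisons. Calls needed an adjusted p under 0.05 and a 2-fold change. The script was tested on simulated data. Alternatives were a pseudocount of 0.1, no filter, a filter at 5 TPM, quantile normalization, equal library medians, the libraries of a comparison alone, a replicate block, voom on the recovered reads, and leaving out each library. Named genes were all 10 members, in each related list up to 2 called genes with the largest rise and fall from day 0 to day 3 in wild-type and up to 2 with the largest genotype difference at day 3, and the 3 genes most like *Cdh1*, *Cdh2* and *Vim*. The members and lists were chosen with earlier results of these data known. Promoter windows are from RefSeq (GRCm38.p6). Tables were made with Python 3.11.15, pandas 2.3.3 and numpy 2.4.6, and figures with matplotlib 3.10.9.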

Additional observations from a re-analysis of the deposited data

Results flagged for a closer look

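Each result given here is a gene whose response to RA differed between the genotypes in the limma test of that difference (knockout minus wild-type, log2, adjusted p under 0.05). From day 0 to day 3 these were *Epcam* (-0.73, with -0.18 in the knockout and 0.55 in wild-type), *Vim* (1.34, with 2.46 and 1.12), *Snai2* (1.24, with 2.52 and 1.27) and *Zeb1* (0.98, with 0.51 and -0.47). From day 1 to day 3 they were *Cdh1* (-0.54, with 0.35 in the knockout and 0.89 in wild-type), *Epcam* (-0.70, with 0.00 and 0.70), *Cdh2* (1.17, with 4.11 and 2.94) and *Vim* (1.42, with 3.06 and 1.64). The day 3 libraries are shared between both sets of values. The *Snai2* value rests on 2 to 14 reads in each day 0 library.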

How the results depend on the processing

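Over the alternatives, the 34 member changes that were called kept their call in 456 of 484 refits, lost it in 28 and never changed sign, and the genotype differences of *Vim* at day 0 and day 1 kept theirs in every refit. The number of members called differed from the main count in several comparisons. For the response difference to day 3 (2) it was 1 with no filter, with the filter at 5 TPM and with equal medians. It was also 1 with the libraries of the comparison alone, 3 with voom and 4 after quantile normalization. For the response difference to day 1 (0) it was 1, *Twist1*, with a pseudocount of 0.1. For the knockout at day 0 (2) it was 1 with its libraries alone and 3 with voom, and for the knockout at day 3 (0) it was 1 with voom. For day 1 in the knockout (2) it was 3 with a pseudocount of 0.1 and 4 with voom. Leaving out each library in turn gave ranges of 1 to 4, 0 to 1, 2 to 3, 0 to 1 and 1 to 2 for these counts. Over all genes, the knockout called 668 at day 0, 73 with its libraries alone, 1280 with voom, 379 without wild-type day 0 replicate 1 and 2249 without replicate 2. The response difference to day 3 called 529 genes, 258 with its libraries alone and 1937 without wild-type day 0 replicate 2, and that to day 1 called 188, with 1793 without that library and 101 to 125 without knockout day 0 replicate 3, wild-type day 1 replicate 1 or 3, or any knockout day 1 library. Day 1 in the knockout called 1519, and 2317 with voom. Among the members, the count from day 0 to day 3 in wild-type (6) was 5 with the filter at 5 TPM and with equal medians. In the knockout (7) it was 6 with that filter and 5 with equal medians. From day 1 to day 3 in wild-type (4) it was 3 with that filter and 5 with voom. In the knockout (6) it was 5 with that filter, quantile normalization or equal medians. For day 1 in wild-type (2) it was 3 with a pseudocount of 0.1 and with voom. Equal medians moved the share of calls that were higher at day 3 in the knockout from 63.2% to 44.8%, and at day 1 between genotypes from 20.8% to 46.2%. Changes of sign concerned changes that had not passed the test. With a pseudocount of 0.1 the *Zeb2* response difference to day 1 was 0.15. After quantile normalization *Cdh2* in the knockout at day 0 was -0.28, *Zeb2* at day 1 in wild-type -0.30, the response differences to day 1 of *Epcam* and *Zeb2* 0.0068 and 0.44, and that of *Snai1* from day 1 to day 3 -0.18. With equal medians *Snai1* in the knockout at day 1 was 0.017, *Cdh1* and *Fn1* at day 1 in wild-type -0.14 and -0.013, *Epcam* from day 1 to day 3 in the knockout -0.22, the response differences to day 1 of *Epcam* and *Vim* 0.081 and 0.037, and that of *Snai1* from day 1 to day 3 -0.19. With voom the last was -0.067, *Epcam* from day 1 to day 3 in the knockout -0.11 and the *Zeb2* response difference to day 1 1.06. Leaving out each library in turn gave -0.15 to 0.079 for the *Epcam* response difference to day 1, -0.091 to 0.36 for the *Zeb2* response difference to day 3, -0.049 to 0.055 for *Cdh2* in the knockout at day 0, -0.34 to 0.11 for the *Zeb2* response difference to day 1, -0.14 to 0.35 for *Snai1* at day 1 in the knockout, -0.0018 to 0.13 for *Cdh1* at day 1 in wild-type, -0.11 to 0.095 for the *Snai1* response difference from day 1 to day 3, -0.037 to 0.057 for *Epcam* from day 1 to day 3 in the knockout, -0.17 to 0.048 for *Fn1* at day 1 in the knockout and -0.30 to 0.022 for *Zeb2* in the knockout at day 3. The cause was not tested. The filter at 5 TPM removed *Zeb2*. Replicate numbers did not pair the libraries: same-numbered libraries had correlations of -0.13 to 0.12, with 1 of 40 pairs over 0.1, and 6 of 17 libraries correlated best with their own number. With the replicate block the response difference of *Snai2* to day 3 was 1.27 (limma, adjusted p = 0.0671) and no longer called, that of *Zeb1* was 1.03 (adjusted p = 0.0252) and called, no other member call changed, and the knockout at day 0 called 610 genes.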
